A study of Homo sapiens with 4 samples.

Results

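The miR-17-92 cluster and its paralogs were followed in 2 colorectal cancer cell lines and in the radioresistant line derived from each. HCT116 and RKO are established human colorectal cancer cell lines, here left unirradiated. HCT116-R and RKO-R were selected from these lines by fractions of 4 Gy that added up to 40 Gy, after which the cells were kept unirradiated for 3 weeks or longer. Small RNA of 18 to 30 nt was sequenced on the BGISEQ-500 platform. There was 1 library per line and 1 radioresistant line per parental line, so no group had a replicate. The 10 members are the mature miRNAs hsa-miR-17-5p, hsa-miR-18a-5p, hsa-miR-19a-3p, hsa-miR-20a-5p, hsa-miR-19b-3p and hsa-miR-92a-3p of miR-17-92, hsa-miR-106b-5p, hsa-miR-93-5p and hsa-miR-25-3p of miR-106b-25, and hsa-miR-363-3p of miR-106a-363. They were chosen by name, as the strands mainly retained from these hairpins, among 1474 miRNAs counted in at least 1 library. Of the 10 members, 9 were counted in every library, and hsa-miR-363-3p was counted in both HCT116 libraries and in neither RKO library.

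A miRNA cluster is a run of hairpins cut from a single primary transcript, and each hairpin can give a mature strand from either arm. The mature strand is loaded into an Argonaute protein and pairs with target mRNAs mainly through its seed, which is the stretch of bases 2 to 8 from the 5′ end, so that miRNAs with a shared seed tend to share targets. The miR-17-92 cluster is driven by MYC and E2F factors and is often amplified or overexpressed in cancer, colorectal cancer included. Its known targets include the pro-apoptotic gene BCL2L11 and the cell cycle inhibitor CDKN1A. The clusters miR-106b-25 and miR-106a-363 are paralogs that arose by duplication.

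The mature sequences are shown because the grouping by seed rests on them. They were taken from RefSeq on GRCh38.p14, where all 10 members were found, and the capitals mark the seed. The first group carries the miR-17 seed, and its members come from both miR-17-92 and miR-106b-25.
hsa-miR-17-5p: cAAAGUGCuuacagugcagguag
hsa-miR-20a-5p: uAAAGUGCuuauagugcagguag
hsa-miR-106b-5p: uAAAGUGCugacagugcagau
hsa-miR-93-5p: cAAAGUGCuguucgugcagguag

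The miR-18 seed has 1 member and the miR-19 seed has 2.
hsa-miR-18a-5p: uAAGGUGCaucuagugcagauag
hsa-miR-19a-3p: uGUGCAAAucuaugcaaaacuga
hsa-miR-19b-3p: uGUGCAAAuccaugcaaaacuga

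The miR-92 seed is held by 1 member of each cluster.
hsa-miR-92a-3p: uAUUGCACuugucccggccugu
hsa-miR-25-3p: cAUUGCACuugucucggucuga
hsa-miR-363-3p: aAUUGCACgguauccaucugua

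Positions are counted from 1 at the 5′ end of the first-named miRNA. The sequences of hsa-miR-19a-3p and hsa-miR-19b-3p differed at 1 base (U11C), and those of hsa-miR-17-5p and hsa-miR-20a-5p at 2 bases (C1U and C12U). hsa-miR-92a-3p differed from hsa-miR-25-3p at 4 bases and from hsa-miR-363-3p at 12, all of the latter outside the shared seed. How reads that match several such miRNAs were assigned is not given in the sources used here, so the division of counts between near-identical members is uncertain and the sums over a seed group are given beside the members.

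The 6 hairpins of miR-17-92 lie within 787 bases of the plus strand of chromosome 13, from 91350605 to 91351391 (GRCh38), inside an exon of 2 transcripts of the non-coding host gene MIR17HG. The 3 hairpins of miR-106b-25 are on chromosome 7, minus strand, from 100093560 to 100094074, within an intron of MCM7, a subunit of the replicative helicase. The 6 hairpins of miR-106a-363 are on chromosome X, minus strand, from 134169378 to 134170278, within an exon of the non-coding gene AC002407.1. The X-linked cluster holds a further copy of hsa-miR-19b-3p (MIR19B2) and of hsa-miR-92a-3p (MIR92A2), each identical in its mature sequence to the copy on chromosome 13, so counts of these 2 members cannot be split between the loci. No annotated hairpin lay on the opposite strand of any of the 3 clusters.

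Library totals ranged from 6818497 to 7140460 counts, and levels are given in CPM, the count scaled by that total, with 95% Wilson intervals, which cover counting error only. A count of 0 was set at a floor of 3 counts per library, 0.420 to 0.440 CPM. The upper Wilson limit of a count of 0 was higher, at 0.538 CPM in RKO and 0.556 in RKO-R. A fold against a count of 0 uses this floor and is called a bound below, although it leaves out the counting error of the higher count. Mature members are 21 to 23 bases long, so CPM needs no correction for length, although ligation and amplification favor some sequences over others and levels of different miRNAs are compared with that limit.

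All 7 epithelial or intestinal miRNAs chosen to check the labelled cell type after seeing the data were counted in every library, and hsa-miR-192-5p, hsa-miR-194-5p, hsa-miR-200a-3p, hsa-miR-200b-3p, hsa-miR-429 and hsa-miR-200c-3p were at 65.1 CPM or more throughout. Of these 7, 2 were far lower in the RKO lines than in the HCT116 lines, as hsa-miR-200c-3p had 90.9 CPM in RKO and 206 in RKO-R against 42717 in HCT116 and 42008 in HCT116-R, and hsa-miR-141-3p had 2.38 and 5.93 against 972 and 1220.

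The 10 members together took 7.12% of all counts in RKO and 5.03% in RKO-R, against 3.99% in HCT116 and 4.12% in HCT116-R. RKO was the highest of the 4 lines. Most of these counts were of hsa-miR-92a-3p, the last hairpin product of miR-17-92, at 57444 CPM in RKO, 39526 in RKO-R, 34521 in HCT116-R and 30832 in HCT116. It held rank 4 among all miRNAs in RKO and ranks 6 to 9 in the other libraries. The next member was hsa-miR-93-5p of miR-106b-25, at 10814 CPM in RKO, 8050 in RKO-R, 6619 in HCT116 and 4793 in HCT116-R, with ranks between 22 and 34.

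The members that were counted spanned more than 3 orders of magnitude within each library. The middle of the range held 5 members in every line, namely hsa-miR-19b-3p (431 to 781 CPM), hsa-miR-25-3p (431 to 766 CPM), hsa-miR-18a-5p (342 to 593 CPM), hsa-miR-20a-5p (349 to 475 CPM) and hsa-miR-17-5p (184 to 408 CPM). hsa-miR-106b-5p followed at 40.2 to 148 CPM, and hsa-miR-19a-3p at 14.4 to 23.2 CPM. The order of the middle members changed between lines, with hsa-miR-25-3p leading them in HCT116 and hsa-miR-19b-3p in the other lines. Within counting error, hsa-miR-19b-3p and hsa-miR-25-3p were not separated in HCT116-R, nor were hsa-miR-20a-5p and hsa-miR-18a-5p there, nor hsa-miR-19a-3p and hsa-miR-363-3p in HCT116. All other neighbors in the order had intervals that did not overlap, an interval that says nothing of how a second culture of the line would vary.

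**Figure D1:**
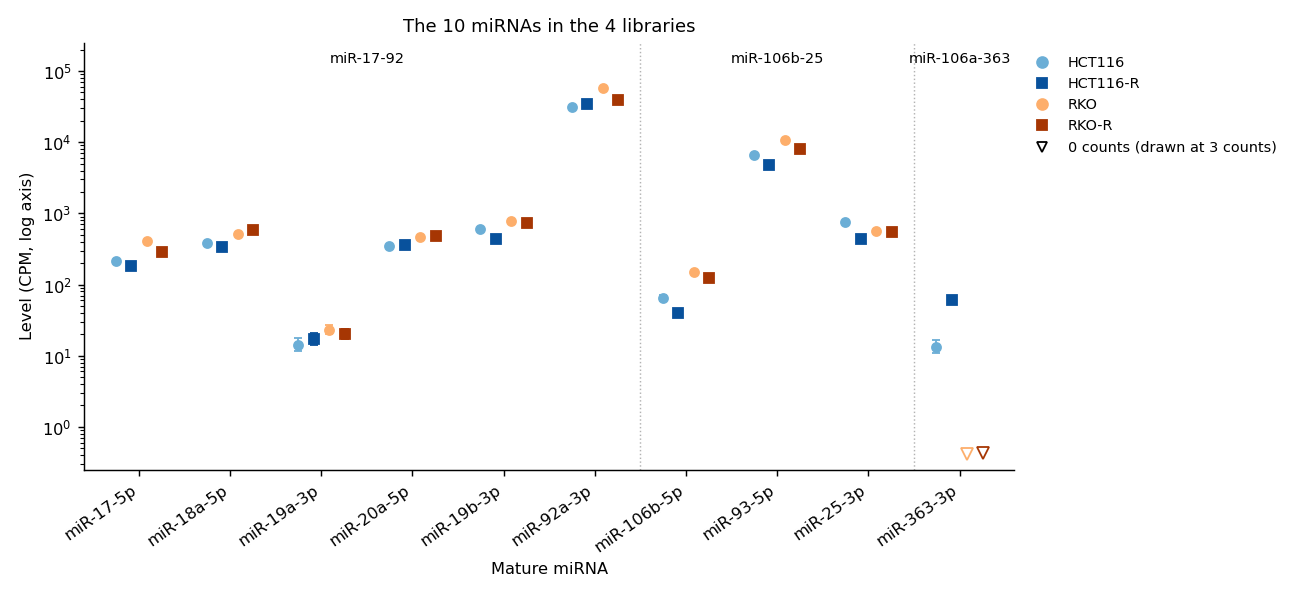
Level of each of the 10 members in CPM on a log axis, with the 4 libraries side by side (circles for parental and squares for radioresistant lines), 95% Wilson intervals as bars, dotted lines between the clusters, and open triangles for 0 counts drawn at the level of 3 counts. hsa-miR-92a-3p lies at 30832 to 57444 CPM in all 4 libraries, while hsa-miR-363-3p has 13.3 and 60.7 CPM in the HCT116 lines and 0 counts in the RKO lines.

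Products of the same primary transcript were far from equal in level. Within miR-17-92, hsa-miR-92a-3p held between 95.0% and 96.3% of the counts of the 6 members in each library, and it had 1980 to 2471 times as many counts as hsa-miR-19a-3p. Within miR-106b-25, hsa-miR-93-5p held between 88.8% and 93.8% of the counts of the 3 members and had 65.6 to 119 times as many as hsa-miR-106b-5p. The share of hsa-miR-25-3p within this cluster was 10.3% in HCT116 and 8.18% in HCT116-R, against 4.97% in RKO and 6.23% in RKO-R. Both HCT116 libraries lay above both RKO libraries in this share.

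Summed over clusters, miR-17-92 reached 59635 CPM in RKO, 41623 in RKO-R, 35858 in HCT116-R and 32388 in HCT116. miR-106b-25 reached 11534 CPM in RKO, 8716 in RKO-R, 7450 in HCT116 and 5264 in HCT116-R. For both clusters, RKO was highest and RKO-R second, and the lowest library was HCT116 for miR-17-92 and HCT116-R for miR-106b-25. Because 1 member carries each sum, the remaining members were also summed alone. The 5 members of miR-17-92 other than hsa-miR-92a-3p reached 2191 CPM in RKO, 2097 in RKO-R, 1556 in HCT116 and 1337 in HCT116-R.

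Summed over seeds, the miR-92 seed was the most abundant group in all 4 libraries, at 58017 CPM in RKO, 40069 in RKO-R, 35012 in HCT116-R and 31611 in HCT116. The miR-17 seed group stood at 11833 CPM in RKO, 8932 in RKO-R, 7247 in HCT116 and 5380 in HCT116-R, and consisted mostly of hsa-miR-93-5p. The miR-19 seed group, which within miR-17-92 is the one known to drive lymphoma in mice, stood at 804 CPM in RKO, 745 in RKO-R, 614 in HCT116 and 448 in HCT116-R. The miR-18 seed, with hsa-miR-18a-5p alone, stood at 593 CPM in RKO-R, 515 in RKO, 380 in HCT116 and 342 in HCT116-R. In CPM, the miR-18 seed was the only group with RKO-R rather than RKO as its highest library. This order depends on the scaling, since with TMM within the RKO pair the miR-19 seed also had a higher value in RKO-R (log2 fold change 0.11, not called).

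The radioresistant and parental libraries of each origin were compared to ask which members moved with acquired radioresistance. Log2 fold changes were computed after TMM scaling within the pair and tested with the exact test of edgeR at an assumed biological coefficient of variation (BCV) of 0.2, which is how the BCV of 0.2 named in the study's methods was read here. Standard errors (SE) follow from the counts and that assumption, since 1 library per line gives none, and the tests compare libraries and not conditions. The BCV estimated over the 4 libraries, with cell line and radioresistance as factors, was 0.482. A member was called at an adjusted p (Benjamini-Hochberg over all miRNAs of the pair) under 0.05.

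In HCT116-R against HCT116, hsa-miR-363-3p rose and none of the other 9 members passed the test. It had 91 counts (13.3 CPM) in HCT116 and 414 counts (60.7 CPM) in HCT116-R, and its log2 fold change was 2.16 (SE 0.44, edgeR adjusted p = 9.8e-05). hsa-miR-363-3p shares its seed with hsa-miR-92a-3p, which stood at 30832 and 34521 CPM in these libraries. The 1 of 10 members called compares with 4.01% of all 1322 miRNAs tested in this pair and with 10.1% of the 318 miRNAs that had at least 100 counts in either library. The call was lost at a BCV of 0.4 (adjusted p = 0.493).

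The members of miR-106b-25 all had lower values in HCT116-R, without passing the test. hsa-miR-25-3p went from 766 to 431 CPM (log2 fold change -0.85, SE 0.41, edgeR adjusted p = 0.396), hsa-miR-106b-5p from 65.4 to 40.2 CPM (-0.72, adjusted p = 0.586) and hsa-miR-93-5p from 6619 to 4793 CPM (-0.49, adjusted p = 0.896). In miR-17-92, the values ranged from -0.50 for hsa-miR-19b-3p to 0.23 for hsa-miR-19a-3p, with hsa-miR-92a-3p at 0.14 (95% interval at the assumed BCV -0.66 to 0.94). The median over the 10 members was -0.20, beside -0.18 over the 318 miRNAs with at least 100 counts. Only hsa-miR-363-3p was past a 2-fold change, beside 15.4% of these 318 miRNAs. It reached 100 counts only in HCT116-R, so within this set it was bound to be higher there.

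In RKO-R against RKO, none of the 9 members with counts was called, none was past a 2-fold change, and none had an unadjusted p under 0.05. The background shares were 5.54% called of 1155 miRNAs, 15.8% called of the 272 with at least 100 counts, and 20.6% past 2-fold. The members' log2 fold changes lay between -0.30 for hsa-miR-92a-3p and 0.44 for hsa-miR-18a-5p, and their intervals at the assumed BCV reached at most from -1.10 to 1.24. The median was 0.02, equal to that of the 272 miRNAs. The median absolute change was 0.19 for the members and 0.43 for the 272 miRNAs.

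These signs depend on the scaling. TMM moved the RKO pair by 0.24 on the log2 scale relative to the library totals, on which the median miRNA fell by 0.22. On library totals hsa-miR-19a-3p, hsa-miR-19b-3p and hsa-miR-25-3p turned from higher to lower in RKO-R, leaving hsa-miR-18a-5p and hsa-miR-20a-5p as the 2 members with higher values. hsa-miR-92a-3p, with 57444 CPM in RKO and 39526 in RKO-R, was lower under both scalings (log2 fold change -0.30, SE 0.41, edgeR adjusted p = 1 with TMM). None of these members was called under any scaling tried.

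**Figure D2:**
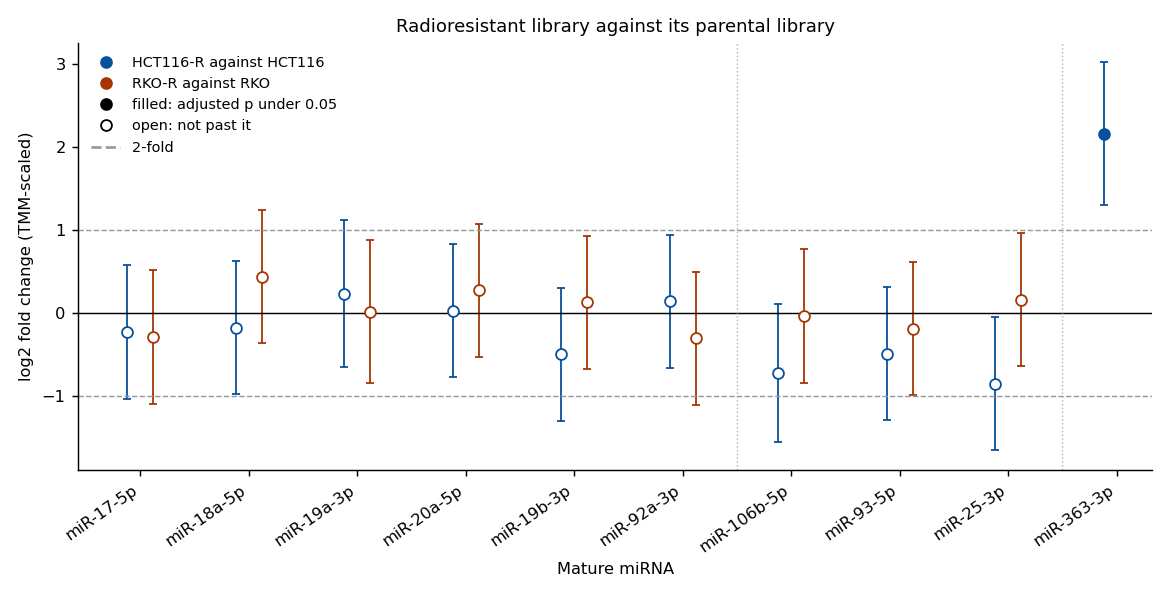
TMM-scaled log2 fold change of each member in HCT116-R against HCT116 (blue) and RKO-R against RKO (brown), with 95% intervals at a BCV of 0.2, filled points for an adjusted p under 0.05 and dashed lines at 2-fold. Only hsa-miR-363-3p in the HCT116 pair is filled, at 2.16, and all 9 members of the RKO pair lie between -0.30 and 0.44.

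Whether the 2 pairs differed was tested with the interaction of cell line and radioresistance in a likelihood ratio test at the same BCV. No member differed between the pairs, beside 4.75% of 1474 miRNAs. The largest difference among testable members was that of hsa-miR-25-3p, at 0.98 on the log2 scale in favor of the RKO pair (edgeR adjusted p = 0.458), and it passed the threshold only at a BCV of 0.1 (adjusted p = 0.0098). hsa-miR-363-3p had no count in the RKO pair, so its rise in HCT116-R could not be compared with RKO.

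Over all 4 libraries, the quasi-likelihood test of edgeR with 1 residual degree of freedom called no member for radioresistance, beside 0.678% of the 590 miRNAs tested. At an unadjusted p under 0.05 it found 14 miRNAs, among them hsa-miR-363-3p (log2 fold change 2.13, SE 0.88, edgeR adjusted p = 0.998), whose value rests on the HCT116 pair alone. The Wald test of DESeq2 also called none of the 10 members for radioresistance. In CPM, no member was higher in both radioresistant libraries than in both parental ones (3.47% of the 346 miRNAs with at least 100 counts in a library were), and hsa-miR-25-3p was lower in both (11.8% of the 346 were). hsa-miR-25-3p no longer separated them with TMM over the 4 libraries or with the size factors of DESeq2.

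The lines were then compared across cell line of origin. In CPM, 8 of the 10 members were higher in both RKO libraries than in both HCT116 libraries, beside 27.5% of the 346 miRNAs with at least 100 counts in a library. These 8 were all 6 members of miR-17-92 together with hsa-miR-106b-5p and hsa-miR-93-5p. Members of a cluster share a primary transcript and some are near-identical in sequence, so the 8 are not independent features. For hsa-miR-19a-3p the Wilson interval of HCT116-R (14.3 to 20.6 CPM) overlapped those of RKO (20.0 to 27.1 CPM) and RKO-R (16.9 to 23.6 CPM). hsa-miR-363-3p was lower in both RKO libraries, as were 42.2% of the 346 miRNAs, and hsa-miR-25-3p overlapped. hsa-miR-363-3p reached 100 counts only in HCT116-R, so it was bound to be lower in the RKO libraries than there. The same count of 8 was found with TMM over the 4 libraries and with the size factors of DESeq2, 2 settings that were chosen after seeing the data.

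The sizes of these differences were modest beside the spread assumed. In RKO against HCT116, 1 of 10 members was called, beside 25.5% of 1289 miRNAs and 51.8% of the 328 with at least 100 counts. That member was hsa-miR-363-3p, 31.7-fold lower in RKO with its 0 counts there set at 3 (edgeR adjusted p = 3.2e-13). hsa-miR-106b-5p, with 65.4 CPM in HCT116 and 148 in RKO, had a log2 fold change of 1.05 (SE 0.42, edgeR adjusted p = 0.0507) and was the only member of 9 with at least 100 counts past 2-fold, beside 54% of the 328 miRNAs. It passed the threshold under 6 of the 8 other settings of the adjusted test, with adjusted p from 1.2e-05 to 0.04 in those. hsa-miR-17-5p (0.81, adjusted p = 0.155) and hsa-miR-92a-3p (0.77, adjusted p = 0.182) followed it. The median over the 9 members with at least 100 counts was 0.57, and that of the 328 miRNAs was -0.26. That 0.57 is the value of hsa-miR-19a-3p, which reached 100 counts only in RKO and was therefore bound to be higher there. With hsa-miR-363-3p, which fell below that minimum, the median over all 10 members was 0.44.

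In RKO-R against HCT116-R, 5 of the 10 members were called, beside 23.2% of 1333 miRNAs and 52.4% of the 311 with at least 100 counts. Of these, 4 were higher in RKO-R, beside 21.5% of the 311 miRNAs. hsa-miR-106b-5p stood at 40.2 CPM in HCT116-R and at 123 CPM in RKO-R, with a log2 fold change of 1.94 (SE 0.42, edgeR adjusted p = 8.4e-05). hsa-miR-18a-5p (342 and 593 CPM, 1.13, adjusted p = 0.0321), hsa-miR-19b-3p (431 and 725 CPM, 1.08, adjusted p = 0.0409) and hsa-miR-93-5p (4793 and 8050 CPM, 1.08, adjusted p = 0.0408) passed the test more narrowly. hsa-miR-363-3p, with 414 counts in HCT116-R and 0 in RKO-R, was 140-fold lower in RKO-R with the 0 set at 3 counts (adjusted p = 1.7e-23). The same 5 members were past 2-fold, beside 56.3% of the 311 miRNAs, and of these hsa-miR-363-3p reached 100 counts only in HCT116-R.

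The 3 narrow calls depended on the scaling. TMM within this pair shifted the values by 0.33 on the log2 scale relative to library totals and by 0.23 relative to TMM over all 4 libraries. Under either of those, 2 members were called, hsa-miR-106b-5p and hsa-miR-363-3p, and hsa-miR-18a-5p had an adjusted p of 0.183 or 0.117. At a BCV of 0.4 hsa-miR-363-3p alone remained. The 9 members other than hsa-miR-363-3p had higher values in RKO-R under every scaling tried, with a median over the 10 members of 0.84 with TMM within the pair (the same with hsa-miR-363-3p at its bound) and 0.51 on library totals, where the 311 miRNAs had 0.06 and -0.28.

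**Figure D3:**
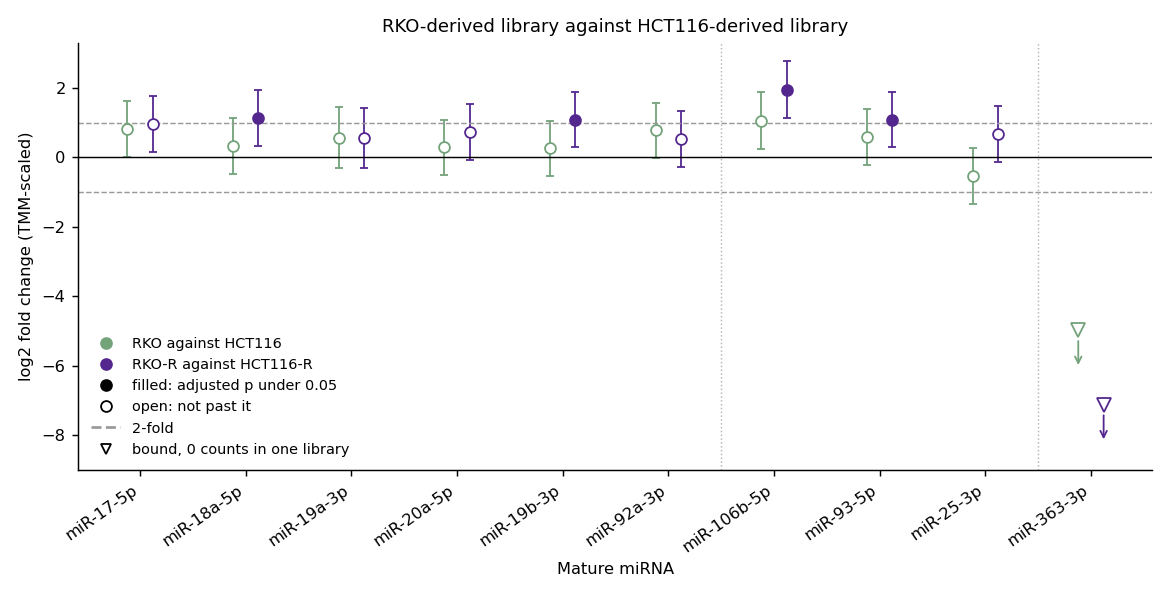
TMM-scaled log2 fold change of each member in RKO against HCT116 (green) and in RKO-R against HCT116-R (purple), with 95% intervals at a BCV of 0.2, filled points for an adjusted p under 0.05, and triangles with arrows for a lower library at 0 counts, drawn at the bound. All members except hsa-miR-25-3p in RKO and hsa-miR-363-3p lie above 0, and hsa-miR-106b-5p is the highest in both comparisons, at 1.05 and 1.94.

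The sums followed their main members. In RKO-R against HCT116-R the sums of the miR-17 seed (log2 fold change 1.08, edgeR adjusted p = 0.0413), the miR-18 seed (1.14, adjusted p = 0.0291), the miR-19 seed (1.08, adjusted p = 0.0416) and the miR-106b-25 cluster (1.08, adjusted p = 0.0419) were called, while the miR-92 seed (0.54, adjusted p = 0.461) and the miR-17-92 cluster (0.56, adjusted p = 0.427) were not. None of these 4 sums was called on library totals or with TMM over all 4 libraries. In RKO against HCT116 the miR-17-92 sum had 0.75 (SE 0.41, adjusted p = 0.199) and the miR-106b-25 sum 0.50 (adjusted p = 0.480). In the radioresistance pairs, no seed group and neither of these clusters was called.

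In the fit over all 4 libraries, edgeR's quasi-likelihood test called 1 member for cell line, hsa-miR-363-3p, which was lower in RKO (adjusted p = 0.000827), beside 29.5% of 590 miRNAs. hsa-miR-106b-5p had the next smallest p, and its log2 fold change was 1.38 (SE 0.56, adjusted p = 0.108). The remaining members of miR-17-92 and miR-106b-25 ranged from -0.06 for hsa-miR-25-3p to 0.77 for hsa-miR-17-5p, and the sign of hsa-miR-25-3p turned with the size factors of DESeq2 (0.11).

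Within miR-106b-25 the members diverged between cell lines more than within miR-17-92. In RKO against HCT116, hsa-miR-106b-5p stood at 1.05 and hsa-miR-25-3p at -0.54, a difference of 1.60 on the log2 scale, whereas the 6 members of miR-17-92 lay within 0.56 of each other. In RKO-R against HCT116-R the corresponding ranges were 1.27 and 0.60. In the radioresistance pairs the ranges were 0.36 and 0.73 in HCT116 and 0.35 and 0.74 in RKO for miR-106b-25 and miR-17-92, respectively. A scaling factor common to a library leaves these ranges as they are, and no test of them was made.

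Among the guide strands that only the X-linked cluster miR-106a-363 holds, those other than hsa-miR-363-3p were barely counted, at most 41 times in a library. Its copies of hsa-miR-19b-3p and hsa-miR-92a-3p cannot be told from those on chromosome 13. hsa-miR-20b-5p was counted 12 times in HCT116, 41 times in HCT116-R and 0 times in both RKO libraries, with a log2 fold change of 1.74 in HCT116-R against HCT116 (SE 0.63, edgeR adjusted p = 0.108). It lies in the same cluster as hsa-miR-363-3p and had its counts in the same 2 libraries. With counts of 0 set at 3, hsa-miR-20b-5p was 4.19-fold lower in RKO than in HCT116 (edgeR adjusted p = 0.00464). It was 13.9-fold lower in RKO-R than in HCT116-R (adjusted p = 5.9e-07). Its 12 counts in HCT116 had a Wilson interval of 1.01 to 3.07 CPM, beside an upper limit of 0.538 CPM in RKO. For HCT116, HCT116-R, RKO and RKO-R in this order, hsa-miR-106a-5p had 2, 3, 0 and 1 counts and hsa-miR-18b-5p had 0, 5, 0 and 2 counts. Each of these 2 differs from its chromosome 13 counterpart at 1 base, hsa-miR-106a-5p from hsa-miR-17-5p (C1A, read from hsa-miR-17-5p) and hsa-miR-18b-5p from hsa-miR-18a-5p (A20U, read from hsa-miR-18a-5p). The 2 arms that tell the X-linked copies apart, hsa-miR-19b-2-5p and hsa-miR-92a-2-5p, had 0 counts in all 4 libraries and 1 count in HCT116-R, respectively. Their chromosome 13 counterparts hsa-miR-19b-1-5p and hsa-miR-92a-1-5p had 43 to 93 and 341 to 1342 counts.

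The opposite arms of the hairpins, fixed as a list of 15, were measured for the share of each hairpin's counts. Of the 15, 3 had no count and 5 had at least 100 counts in a library. The 3 arms whose values the text turns on have these sequences, again from RefSeq with bases 2 to 8 in capitals.
hsa-miR-17-3p: aCUGCAGUgaaggcacuuguag
hsa-miR-18a-3p: aCUGCCCUaagugcuccuucugg
hsa-miR-25-5p: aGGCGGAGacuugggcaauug

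hsa-miR-18a-3p was counted 858 times in RKO, 283 times in RKO-R, 235 times in HCT116-R and 190 times in HCT116. RKO stood apart from the other 3 lines. In RKO-R against RKO it fell, with a log2 fold change of -1.32 (SE 0.42, edgeR adjusted p = 0.0446), while hsa-miR-18a-5p of the same hairpin had 0.44 (SE 0.41, adjusted p = 0.871). Its share of the hairpin's counts was 18.9% (95% Wilson interval 17.8 to 20.1) in RKO and 6.46% (5.77 to 7.22) in RKO-R, beside 6.83% (5.95 to 7.83) in HCT116 and 9.16% (8.11 to 10.3) in HCT116-R. In RKO against HCT116 hsa-miR-18a-3p was higher (1.98, SE 0.42, adjusted p = 5.7e-05). It was not called in RKO-R against HCT116-R (0.58, SE 0.43, edgeR adjusted p = 0.453). At a BCV of 0.4 neither the fall in RKO-R nor the higher value in RKO against HCT116 was called (adjusted p = 1 and 0.14), and the difference between the pairs did not pass the test (-1.64, adjusted p = 0.1).

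All 5 arms with at least 100 counts had lower values in RKO-R than in RKO, with a median log2 fold change of -0.91, beside 49.3% of the 272 miRNAs with lower values and their median of 0.02. Of the 5, 1 was called, beside the 15.8% given above. hsa-miR-92a-1-5p went from 1342 to 507 counts (-1.12, SE 0.41, edgeR adjusted p = 0.105), and hsa-miR-93-3p from 227 to 99 counts (-0.91, SE 0.44, adjusted p = 0.359). The fall of hsa-miR-92a-1-5p was called on library totals (adjusted p = 0.0262) and with a filter of 10 counts (0.04995). At a BCV of 0.1 both were called (8.5e-06 for hsa-miR-92a-1-5p and 0.00814 for hsa-miR-93-3p). hsa-miR-93-3p, which sets the median, reached 100 counts only in the parental libraries and was therefore bound to be lower in the radioresistant ones. hsa-miR-25-5p had -0.39 and hsa-miR-17-3p -0.17, both with an adjusted p of 1. In HCT116-R against HCT116, 2 of the 5 had higher and 3 had lower values, and none was called.

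In CPM, hsa-miR-17-3p, hsa-miR-18a-3p and hsa-miR-92a-1-5p were higher in both RKO libraries than in both HCT116 libraries, beside 27.5% of the 346 miRNAs. The Wilson intervals of RKO-R and HCT116-R overlapped for hsa-miR-18a-3p (36.4 to 46.0 and 30.3 to 39.2 CPM). They also overlapped for hsa-miR-92a-1-5p (67.2 to 80.0 and 63.1 to 75.6 CPM). hsa-miR-25-5p was lower in both RKO libraries, beside 42.2%, and hsa-miR-93-3p overlapped. hsa-miR-92a-1-5p had 188 and 73.3 CPM in RKO and RKO-R against 50.0 and 69.1 in HCT116 and HCT116-R. It was called in RKO against HCT116 (1.78, edgeR adjusted p = 0.000271), though not at a BCV of 0.4 (adjusted p = 0.204). RKO-R against HCT116-R gave no call for it (0.42, adjusted p = 0.633). hsa-miR-17-3p, which reached the minimum of 100 counts only in the RKO libraries and was therefore bound to be higher there, was counted 211 times in RKO, 154 times in RKO-R, 47 times in HCT116 and 36 times in HCT116-R, and its share of the hairpin was 6.75%, 7.27%, 3.13% and 2.78% in that order. It was higher in RKO than in HCT116 (log2 fold change 1.97, SE 0.47, edgeR adjusted p = 0.000326), higher in RKO-R than in HCT116-R (2.41, SE 0.49, adjusted p = 1.8e-05), and called over the 4 libraries (2.07, SE 0.62, adjusted p = 0.034), a call that was lost on library totals (adjusted p = 0.0646), with the size factors of DESeq2 (0.0659) and in the Wald test of DESeq2 (0.0812). At a BCV of 0.4 neither pair was called for it (adjusted p = 0.16 and 0.0744). hsa-miR-25-5p ran the other way, counted 740 and 580 times in HCT116 and HCT116-R but 304 and 190 times in RKO and RKO-R. Its share of the hairpin was 12.4% (95% Wilson interval 11.6 to 13.3) and 16.5% (15.3 to 17.8) in the HCT116 lines and 6.92% (6.21 to 7.71) and 4.82% (4.19 to 5.53) in the RKO lines. It was lower in RKO than in HCT116 (-1.47, SE 0.42, adjusted p = 0.00345) and in RKO-R than in HCT116-R (-1.30, SE 0.43, adjusted p = 0.0145), and was not called over the 4 libraries (-1.50, adjusted p = 0.0863) nor in either pair at a BCV of 0.4 (adjusted p = 0.328 and 0.481).

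**Figure D4:**
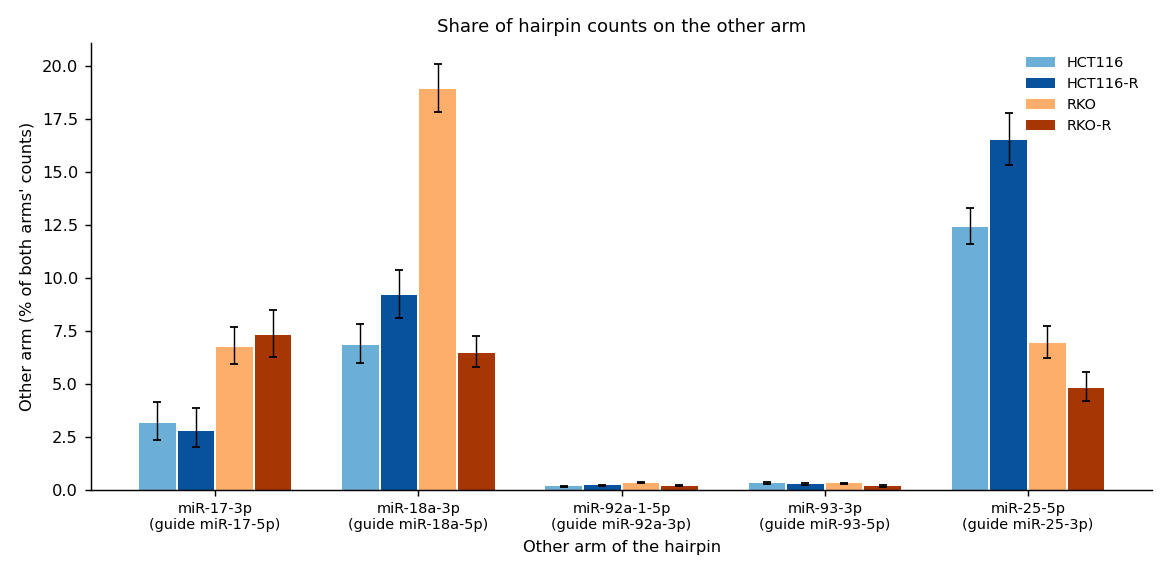
Counts on the other arm as a percent of the counts of both arms of a hairpin, for the 5 arms with at least 100 counts in a library, with 95% Wilson intervals and the 4 libraries as bars. hsa-miR-18a-3p reaches 18.9% in RKO and 6.46 to 9.16% in the other 3 libraries, and hsa-miR-25-5p lies at 12.4 and 16.5% in the HCT116 lines against 6.92 and 4.82% in the RKO lines.

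Members of the 3 clusters supplied nearly all counts of the miR-17, miR-18 and miR-19 seeds, with shares of 99.8% to 100% in every library. The miR-92 seed was different, since 2 abundant miRNAs outside the clusters carry it, hsa-miR-92b-3p from chromosome 1 (155195237 to 155195258, plus strand, GRCh38) and hsa-miR-32-5p from chromosome 9. The first is the more abundant and is left out of the sums over the miR-92 seed group. Its sequence is close to that of hsa-miR-92a-3p outside the seed too, so the division of counts between these 2 is uncertain. It is shown because it shares the seed of hsa-miR-92a-3p.
hsa-miR-92b-3p: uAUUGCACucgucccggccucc

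hsa-miR-92b-3p stood at 5266 CPM in HCT116-R, 3957 in HCT116, 1375 in RKO and 660 in RKO-R. Opposite to hsa-miR-92a-3p, hsa-miR-92b-3p was higher in both HCT116 libraries than in both RKO libraries, as were 42.2% of the 346 miRNAs. It was lower in RKO than in HCT116 (log2 fold change -1.65, SE 0.41, edgeR adjusted p = 0.000606), lower in RKO-R than in HCT116-R (-2.66, SE 0.41, adjusted p = 2e-08), and called over the 4 libraries (-2.27, SE 0.51, adjusted p = 0.00942), although not with the size factors of DESeq2 (adjusted p = 0.0769). At a BCV of 0.4 the call in RKO against HCT116 was lost (adjusted p = 0.249). Within the radioresistance pairs hsa-miR-92b-3p had the same signs as hsa-miR-92a-3p. In HCT116-R against HCT116 the values were 0.39 and 0.14, and in RKO-R against RKO -0.82 and -0.30, none of them called. hsa-miR-32-5p stayed between 425 and 503 CPM and was called in no comparison. The members' share of the miR-92 seed was 87.8% in HCT116 and 86.0% in HCT116-R, against 96.9% in RKO and 97.3% in RKO-R.

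**Figure D5:**
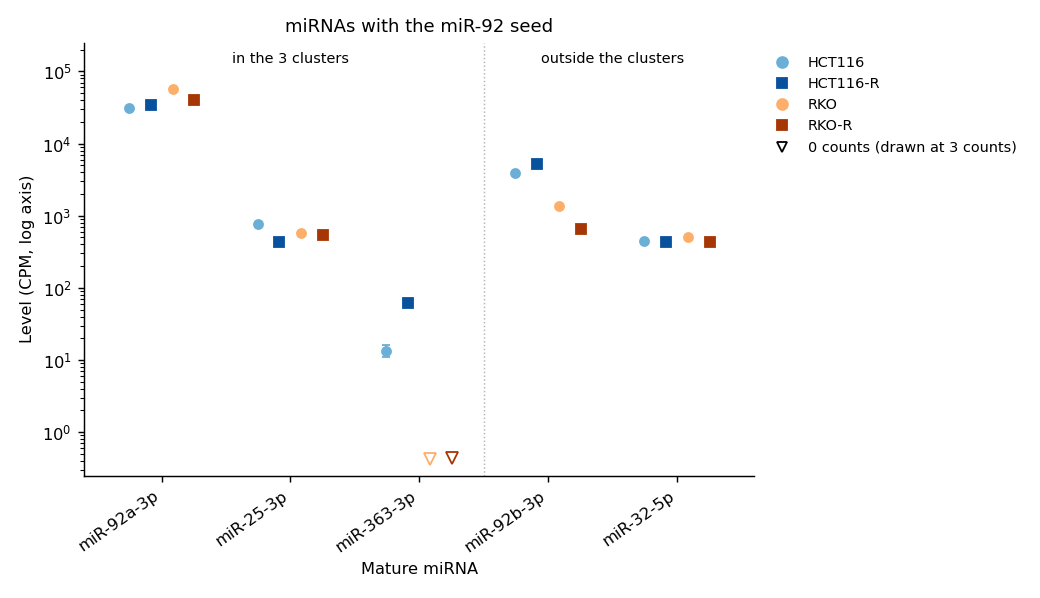
Level in CPM on a log axis of the 5 counted miRNAs with the miR-92 seed, 3 from the clusters and 2 from elsewhere, with 95% Wilson intervals and open triangles for 0 counts drawn at the level of 3 counts. hsa-miR-92a-3p is higher in the RKO lines, at 57444 and 39526 CPM, whereas hsa-miR-92b-3p is higher in the HCT116 lines, at 3957 and 5266 CPM.

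The miRNAs whose profile over the 4 libraries was nearest to that of the clusters were sought among 195 with at least 100 counts in every library, by the Euclidean distance between log2(CPM + 1) values centered on their mean. For the miR-17-92 sum these were hsa-miR-188-5p (distance 0.11), hsa-miR-3615 (0.13), hsa-miR-3074-5p (0.17), hsa-miR-449a (0.22) and hsa-miR-501-3p (0.23). The same 5 were nearest to the sum of the 10 members. For the miR-106b-25 sum they were hsa-miR-484 and hsa-miR-330-3p (both 0.21), hsa-miR-361-5p and hsa-miR-16-5p (both 0.22), and hsa-miR-29c-5p (0.26). hsa-miR-16-5p, a repressor of cyclins and BCL2 from another cluster, stood at 23660 CPM in RKO, 18072 in RKO-R, 16038 in HCT116 and 9283 in HCT116-R. With 4 points per profile, many miRNAs can resemble any given one, and this likeness is a description.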

How the data were processed

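Small RNA libraries with unique molecular identifiers (UMIs) were made from HCT116, HCT116-R, RKO and RKO-R, 1 per line, and groups were taken from the sample titles. The authors deposited raw counts per mature miRNA. The submitters' processing notes name Bowtie2 and hg38, with versions not given in the sources used here, and neither the miRNA annotation, the use of strand, nor whether UMIs were collapsed is given there. If they were not collapsed, counts are not independent molecules and intervals are too narrow. A miRNA absent from a table was given 0 counts.

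Counts were joined by name and divided by the library total (6818497 to 7140460) to give CPM. Pairs of libraries were tested with the exact test of edgeR 4.0.16 (R 4.3.3), with TMM within the pair and an assumed BCV of 0.2, over all miRNAs with at least 1 count. The miRNAs counted as past 2-fold had at least 100 counts in either library. All 4 libraries were fitted with edgeR's quasi-likelihood test (cell line and radioresistance as factors), and the interaction with a likelihood ratio test. Alternatives were BCVs of 0.1 and 0.4, library totals, DESeq2 1.42.0 size factors and Wald test, TMM over 4 libraries, filters of 10 counts or 1 CPM, a likelihood ratio test and unadjusted p. Fits were also run on counts simulated at a BCV of 0.2. This lies below the 0.482 estimated over the 4 libraries, so those runs do not check the tests at that spread.

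All 10 members were named, and other guides, opposite arms and seed relatives where a library held at least 100 counts. The guide strands hsa-miR-20b-5p, hsa-miR-106a-5p and hsa-miR-18b-5p, the 2 arms specific to the X-linked copies and hsa-miR-19b-1-5p fell below that and were named after their values were seen. For the profiles, the 5 nearest miRNAs were named. Members and lists were chosen with earlier results of these data known. Positions and host genes came from GENCODE 29 and RefSeq. Python 3.11.15 was used with pandas 2.3.3 and matplotlib 3.10.9.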

Additional observations from a re-analysis of the deposited data

How the results depend on the processing

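With 1 library per line, no library could be left out of a pair, and no spread between replicates was available. Each radioresistant line was compared with its own parental line, and in the fit over 4 libraries this pairing entered as the cell line term. No pairing by replicate was possible with 1 library per line. The assumed BCV decided most counts. At a BCV of 0.1, 3 members were called in HCT116-R against HCT116, 6 in RKO against HCT116 and 9 in RKO-R against HCT116-R, with 5 sums over seeds and clusters in RKO against HCT116 and 1 difference between the pairs. At a BCV of 0.4, 0, 1 and 1 members were called in the same order, with 0 sums in the HCT116 pair and 1 in RKO-R against HCT116-R. The counts over all miRNAs were 53 (HCT116 pair), 64 (RKO pair), 329 (RKO against HCT116) and 309 (RKO-R against HCT116-R), against 154 and 148 in the first 2 at a BCV of 0.1, 149 and 148 there without adjustment, and 24, 9, 152 and 140 at a BCV of 0.4. No member was called in RKO-R against RKO under any setting.

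Unadjusted, 2 members were called in the HCT116 pair. In RKO against HCT116, 2 were called on library totals, with the size factors of DESeq2, with either filter, by the likelihood ratio test and unadjusted, hsa-miR-106b-5p being the addition. In RKO-R against HCT116-R, 2 were called and 2 were past 2-fold on library totals and with TMM over all 4 libraries, with 1 sum called under each. A limit of 1.5-fold gave 3 members in the HCT116 pair, 3 in RKO against HCT116 and 8 in RKO-R against HCT116-R, and a minimum of 10 counts gave 2 in RKO against HCT116.

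In the fit over 4 libraries the count over all miRNAs was 174 for cell line, against 47 with the size factors of DESeq2 and 107 in its Wald test, and 4 for radioresistance, against 2 on library totals, 0 with the size factors of DESeq2 (8 unadjusted; the Wald test of DESeq2 called 4) and 11 with a filter of 10 counts.

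No change whose sign turned was called at a BCV of 0.2 or in the fit over 4 libraries. On library totals, the RKO pair had -0.22 for hsa-miR-19a-3p, -0.11 for hsa-miR-19b-3p, -0.076 for hsa-miR-25-3p, -0.22 for hsa-miR-32-5p and -0.11 for the miR-19 seed, and with the size factors of DESeq2 -0.012 for both hsa-miR-19a-3p and hsa-miR-32-5p. hsa-miR-25-3p over 4 libraries had 0.11 for cell line with the size factors and the Wald test of DESeq2. Replacing a member by its seed sum turned hsa-miR-19a-3p (-0.45), hsa-miR-20a-5p (-0.43) and hsa-miR-25-3p (from -0.85 to 0.15) in the HCT116 pair, hsa-miR-20a-5p (-0.18) and hsa-miR-25-3p (-0.31) in the RKO pair and hsa-miR-25-3p (from -0.54 to 0.74) in RKO against HCT116, and these 2 changes of hsa-miR-25-3p were called at a BCV of 0.1 before summing.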
